A study of Mus musculus with 4 samples.

Results

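C-type natriuretic peptide and its receptors were followed through the cells of the mouse ovary as 3 genes, Nppc (ENSMUSG00000026241), Npr2 (ENSMUSG00000028469) and Npr3 (ENSMUSG00000022206), taken by name from the 32285 genes of the count tables. Nppc encodes the peptide, Npr2 its guanylyl cyclase receptor and Npr3 the clearance receptor. The unique molecular identifiers (UMIs, each a tag for 1 captured RNA molecule) of the 3 genes were counted in every class of cells and in every library. Droplet single-cell RNA-seq had been made from ovaries of 8-week-old female littermates. The controls were Fosl2F/F mice, homozygous for a floxed Fosl2 allele and labelled WT, and the Fosl2cKO mice carried Cyp19a1-Cre on the same floxed background. Each group had 2 libraries. The controls carried no Cre, so an effect of the transgene by itself cannot be told apart from loss of Fosl2, and Cyp19a1-Cre acts in the granulosa cells (GCs) that express aromatase. The ovaries were given as n = 2 per group, from mice in estrus by vaginal smear, but the labels do not tie a library to a mouse, so p-values measure the spread between libraries. Gonadotropin treatment of these mice was not given in the sources used here.

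C-type natriuretic peptide is made by the GCs that line the follicle wall and acts on the guanylyl cyclase NPR2 of the cumulus cells around the oocyte. The cyclic GMP that NPR2 makes passes through gap junctions into the oocyte, where it keeps the phosphodiesterase PDE3A from degrading cyclic AMP and so holds meiosis in arrest until the surge of luteinizing hormone. NPR3 has no cyclase and takes natriuretic peptides up for degradation.

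On GRCm38, with the gene models of GENCODE M21, Nppc lay at chr1:86666291-86670571 on the minus strand with 3 exons. Npr2 lay at chr4:43631935-43651244 on the plus strand (principal transcript of 22 exons), and an opposite-strand gene, Gm12473, overlapped it. Npr3 lay at chr15:11839896-11907287 on the minus strand with 8 exons, and Gm5144 overlapped it on the opposite strand. FOSL2 is a subunit of the AP-1 transcription factor. Neither the AP-1 letters TGANTCA nor the cyclic AMP response element TGACGTCA, searched on both strands, occurred in the 300 bases around the RefSeq start of Nppc, Npr2 or Npr3. Of 32851 promoter windows of that length, 7.81% and 1.79% held them, so most windows lack both and nothing is read from their absence in 3.

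After filtering, 41538 cells remained, from 6760 to 19575 per library. The libraries held 120327227 to 148836173 UMIs over all deposited barcodes. The second Fosl2F/F library stood apart in depth, with a median of 3654 UMIs per kept cell against 11187 to 12479 in the other three. Pairs of libraries shared 15 to 81 barcodes, at most 0.763% of the smaller library. The cells fell into 26 clusters, of which 8 with 15796 cells were GC-like, and these were clustered again into 11. Clusters were called after cell types from marker lists ("-like"), and a cluster that met no list clearly is called here by its leading genes. Members of the natriuretic peptide and cyclic GMP list were kept out of the genes used for clustering. Fosl2 itself was detected in GC-like cells of every library, at 115 to 167 CPM (UMIs scaled to a total of 1000000 per class and library), with a log2 fold change of -0.25 (SE 0.20, edgeR adjusted p = 0.9997). In mural-like cells it stood at 285 and 285 CPM in Fosl2F/F and at 367 and 197 CPM in Fosl2cKO (log2 fold change -0.07, SE 0.32, edgeR adjusted p = 0.9996). The floxed stretch is given as exons 2 to 4, and in GENCODE M21 exon 4 is the last exon of the coding transcript and holds its 3′ end, where 3′ counts mostly fall. The counts do not show where in the gene a UMI lay, nor is the exact end of the floxed stretch given in the sources used here. Loss of Fosl2 RNA was therefore not seen in the libraries labelled Fosl2cKO, and their genotypes are taken from the labels. The study reports depletion of Fosl2 protein by immunoblot in GCs of Fosl2cKO mice, but does not tie that blot to these libraries. The fold change of Plb1, the gene that passed in every GC state tested, is given below.

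Nppc, the ligand, was a GC transcript. GC-like cells were on average 39.1% of the cells of a library but held 91.2% ± 4.14 (SD, n = 4) of its Nppc UMIs, from 87.3% to 97.0%. In all, 24162 Nppc UMIs were counted, in 7489 of 41538 cells. The level in GC-like cells as a whole was 98.1 ± 54.9 CPM (SD, n = 4), and in the stromal-like cells 5.70 ± 2.40.

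Within the GCs, the highest level was in the mural-like cells, which were named from Lhcgr (the receptor of luteinizing hormone), Cyp19a1 (aromatase) and 5 further markers. Nppc stood there at 422 and 215 CPM in the first and second Fosl2F/F libraries and at 286 and 182 CPM in the first and second Fosl2cKO libraries. The unnamed cluster led by Grem1 and Kcne2, with 2081 cells, followed at 390.0, 167, 179.7 and 170.1 CPM in the same order. Mural-like cells were above this cluster in 4 of 4 libraries, but their ranges overlapped. Both were clear of the next state as a whole, since the highest mitotic-like value was 131 CPM. The mitotic-like state pooled several clusters, and its largest reached 169.99 CPM in the first Fosl2F/F library. That value overlapped the range of the Grem1/Kcne2 cluster, though it was below the 390.0 CPM of that cluster in the same library.

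The middle of the order could not be resolved. Mitotic-like cells had 73.8 ± 40.5 CPM of Nppc, mitotic-antral-like cells, a state with Cox4i2 and Ldha, 69.1 ± 31.8, the Rbfox1/Spef2 cluster of 229 cells with few UMIs 66.1 ± 49.0, and atretic-like cells 52.3 ± 7.98 (SD, n = 4 for each). Their ranges overlapped. At the bottom, the Amh/Cited1 cluster had 31.3 ± 18.1 CPM, and cumulus-like cells had 22.5 and 29.2 CPM in Fosl2F/F and 25.1 and 28.9 CPM in Fosl2cKO. The 4 cumulus-like values lay closer together than those of any other GC state named above, with an SD of 3.21 CPM. The Rrad cluster, with 379 cells, was lower still at 11.5 ± 5.995 CPM.

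**Figure D1:**
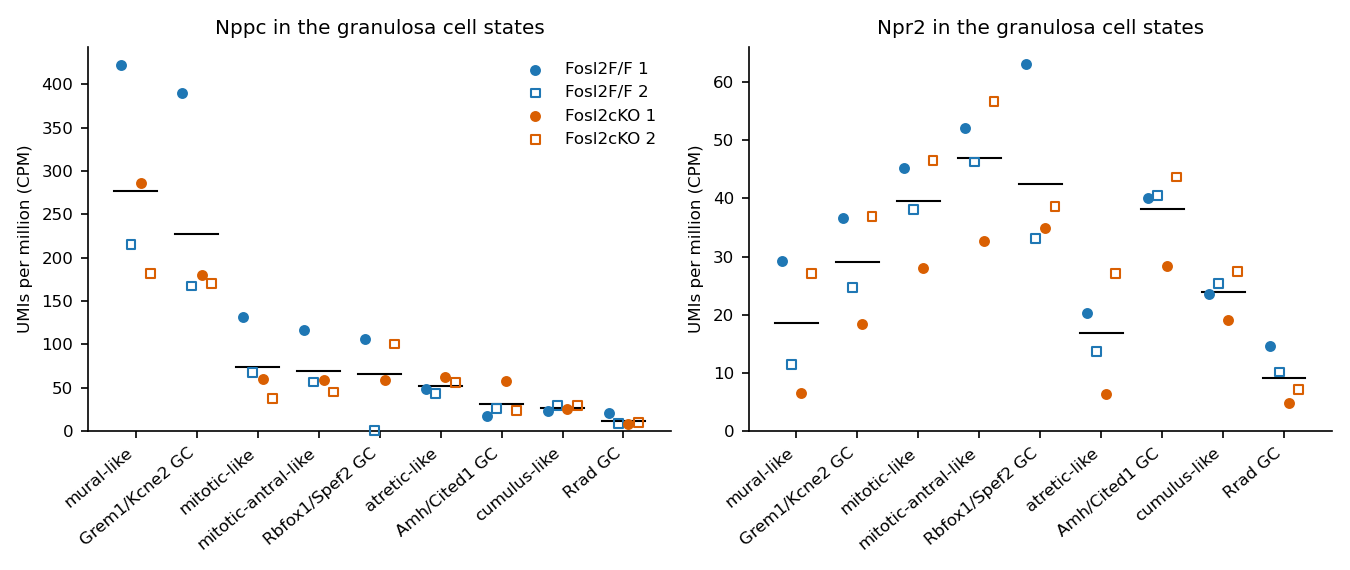
CPM (UMIs per 1000000 UMIs of the state) of Nppc and Npr2 on the y axes in the 9 granulosa cell states on the x axes, ordered by the mean of Nppc in both panels. Each point is a library, blue for Fosl2F/F and orange for Fosl2cKO, and the line is the mean of the 4. Nppc fell from 276 CPM in mural-like to 26.4 CPM in cumulus-like cells, whereas Npr2 was highest in mitotic-antral-like cells at 46.9 CPM. The marker list of the mitotic-antral-like state held no cell cycle gene.

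Nppc was 10.2-fold higher in mural-like than in cumulus-like cells, a log2 difference of 3.35 (SE 0.24, 95% interval 2.80 to 3.90, edgeR quasi-likelihood test with the library as a block, Benjamini-Hochberg adjusted p = 1.27e-05). Within libraries the ratio was 18.7 and 7.38 in Fosl2F/F and 11.4 and 6.28 in Fosl2cKO. Against atretic-like cells the mural-like level was 4.95-fold higher (log2 difference 2.31, SE 0.20, edgeR adjusted p = 0.000211), with ratios of 3.27 to 8.68. Mural-like and cumulus-like cells were separated by their expression of other genes, and 55.1% of 12817 genes passed between them, as 29.1% of 12365 genes did between mural-like and atretic-like cells.

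The share of cells with an Nppc UMI followed the levels. After each cell had been thinned to 2000 UMIs, 35.6% ± 9.39 of the mural-like cells, 31.9% ± 9.03 of the Grem1/Kcne2 cells and 5.10% ± 0.43 of the cumulus-like cells (SD, n = 4 libraries) had one. Without thinning the shares were 73.6% in mural-like and 22.6% in cumulus-like cells. In macrophage-like cells, which should lack the gene, the thinned share was 1.02% ± 1.30, and in NK or T-like cells 0.40% ± 0.58. Median depths before thinning were 4094.5 to 15368 UMIs in mural-like, 3371 to 12412.5 in cumulus-like, 2270 to 8246 in macrophage-like and 1369 to 3433.5 in NK or T-like cells. The cell with the most Nppc held 51 UMIs and was mural-like.

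Outside the GCs, Nppc was low. Theca-like cells had 14.4 and 8.59 CPM in Fosl2F/F and 8.74 and 9.59 CPM in Fosl2cKO. They were above macrophage-like and NK or T-like cells of the same library in 4 of 4 libraries. The theca-like class pooled an Abcb1b/Hao2 cluster of 3684 cells at 7.80 ± 2.73 CPM and a Cyp17a1 cluster of 1438 cells at 15.1 ± 2.83 CPM. Pericyte or smooth muscle-like, luteal-like and epithelial-like cells were at 9.21 to 10.1 CPM on average. The first Fosl2F/F library, which had the most Nppc in its GCs, also had the most in these immune cells: macrophage-like and NK or T-like cells together held 11.7 CPM there and 0.780 to 2.56 CPM in the other libraries. The part of RNA from other cells in these low values was not tested.

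**Figure D2:**
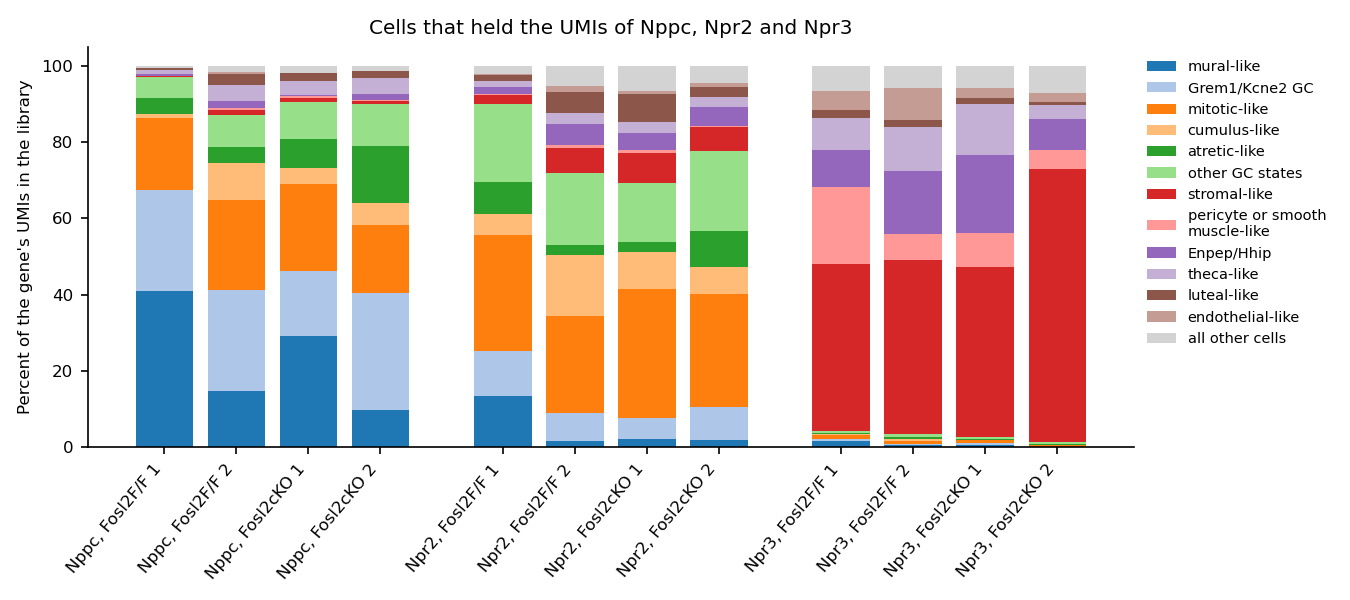
Percent of each gene's UMIs in a library (y axis) that came from each class of cells, with 1 stacked bar per gene and library on the x axis. GC states hold 91.2% of the Nppc UMIs and 77.3% of the Npr2 UMIs on average, and stromal-like cells 51.5% of the Npr3 UMIs.

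Npr2, the receptor that makes cyclic GMP, was also highest in the GC-like class taken as a whole, but not in every GC state, and its order across the states differed from that of Nppc. GC-like cells held 77.3% ± 9.23 (SD, n = 4) of the Npr2 UMIs of a library and had 35.1 and 30.2 CPM in Fosl2F/F and 20.96 and 38.3 CPM in Fosl2cKO. Mitotic-antral-like cells, whose marker list held no cell cycle gene, had 52.2 and 46.3 CPM in Fosl2F/F and 32.7 and 56.7 CPM in Fosl2cKO. The Rbfox1/Spef2 cluster had 42.5 ± 14.0 CPM, mitotic-like cells 39.5 ± 8.496 and the Amh/Cited1 cluster 38.2 ± 6.74, with overlapping ranges. Amh, the leading gene of the last, encodes anti-Mullerian hormone, a product of GCs. Cumulus-like cells were named from Slc38a3, Slc18a2, Ablim1, Gatm, Col18a1, Itga6 and Pcsk6. Of these, Slc18a2 was also a leading gene of an Amh-led cluster when all cells were clustered. How far the cumulus-like values of Npr2 depend on this naming was not tested.

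Cumulus-like cells had 23.6 and 25.4 CPM of Npr2 in Fosl2F/F and 19.1 and 27.4 CPM in Fosl2cKO, so the libraries were near one another. Mural-like cells had 29.3 and 11.5 CPM in Fosl2F/F and 6.57 and 27.1 CPM in Fosl2cKO, and these values spanned those of the cumulus-like cells. The log2 difference between mural-like and cumulus-like cells was -0.45 (SE 0.28, 95% interval -1.09 to 0.19, edgeR adjusted p = 0.216). Within libraries, mural-like cells were higher in 1 of 4, at a ratio of 1.24, and lower in the rest, at 0.345 to 0.987. With the first Fosl2F/F library left out the difference was -0.84 and passed (edgeR adjusted p = 0.0428), and with coarser clusters or doublets kept it turned to 0.024 and 0.044 and did not pass. Its adjusted p ran from 0.0234 to 0.921 over the alternatives that kept all libraries. Atretic-like and mural-like cells differed by 0.10 on the log2 scale (95% interval -0.28 to 0.48, edgeR adjusted p = 0.721). With doublets kept or with coarser clusters the mural-like level of Npr2 was above the atretic-like level by 0.42 and 0.60, with edgeR adjusted p of 0.0389 and 0.0114, in a range of 0.0114 to 0.996 over the alternatives.

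Thinned to 2000 UMIs, 8.03% ± 3.32 of the mitotic-antral-like, 6.72% ± 2.71 of the Amh/Cited1, 4.86% ± 1.43 of the cumulus-like and 4.70% ± 2.30 of the mural-like cells had an Npr2 UMI (SD, n = 4). In macrophage-like cells the share was 0.33% ± 0.25, and in NK or T-like cells, few of which were deep enough, 1.59% ± 2.43. Unthinned, 22.9% of the cumulus-like and 19.9% of the mural-like cells had one. An Nppc and an Npr2 UMI in the same thinned cell were found in 2.12% ± 0.94 of the mural-like and 0.30% ± 0.19 of the cumulus-like cells. None was found in macrophage-like cells, where each gene alone was too rare for this to be a contrast. The shares to be expected from the single genes were not computed, so nothing beyond the separate levels is read from these values.

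The Rrad cluster had the lowest mean of the GC states, at 14.6 and 10.1 CPM of Npr2 in Fosl2F/F and 4.77 and 7.15 CPM in Fosl2cKO. Among the 15 classes and clusters outside the GCs, the highest mean level of Npr2 was in a cluster led by the smooth muscle genes Myh11, Tagln and Acta2, with 20.6 and 15.7 CPM in Fosl2F/F and 22.9 and 26.5 CPM in Fosl2cKO. Its mean of 21.4 CPM was above those of the mural-like (18.6) and atretic-like GCs (16.9), with overlapping ranges. Stromal-like cells had 12.1, 15.0, 12.9 and 15.7 CPM in the same order. Npr2 was 2.14-fold higher in GC-like than in stromal-like cells (log2 difference of stromal-like against GC-like cells -1.10, SE 0.16, edgeR adjusted p = 0.000268), in a comparison in which 70.2% of 16212 genes passed. Theca-like cells were near the low end at 3.35 ± 0.92 CPM, beside 3.25 ± 3.32 in NK or T-like and 1.195 ± 0.92 in macrophage-like cells. Of the theca-like clusters, Abcb1b/Hao2 had 2.12 ± 0.28 CPM and Cyp17a1 5.59 ± 0.995 CPM. The stromal-like class held a main cluster of 6023 cells with Mgp and Lum and a small one, led by Gsn, Clec3b and C3, in which Npr2 stood at 33.5 ± 19.1 CPM against 13.6 ± 1.61 in the main one. The small cluster had 13 to 97 cells per library, and the difference was not tested.

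Npr3, the clearance receptor, was found mainly outside the GC-like cells. Stromal-like cells held 51.5% ± 13.6 (SD, n = 4) of its UMIs in a library, from 43.9% to 71.9%, and GC-like cells 2.80% ± 1.25. Stromal-like cells had 82.5 and 109.7 CPM in Fosl2F/F and 92.1 and 243 CPM in Fosl2cKO. The second Fosl2cKO library stood above the other three. Pericyte or smooth muscle-like cells had 186 and 60.7 CPM in Fosl2F/F and 112 and 127.8 CPM in Fosl2cKO, so that their order with the stromal-like cells differed between libraries (higher stromal-like level in 2 of 4). The leading genes of this class were Rgs5, Mustn1, Notch3 and Ebf1. The smooth muscle genes Myh11, Tagln and Acta2 led a separate cluster, which had less Npr3.

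A gap followed. Endothelial-like cells, the cells of the blood vessel wall, had 33.8 ± 10.4 CPM, all 4 libraries below the lowest pericyte or smooth muscle-like value. The Myh11/Tagln cluster had 30.2 ± 11.5 CPM and the larger Enpep/Hhip cluster of 4271 cells 29.96 ± 15.2 CPM, with overlapping ranges. The smaller cluster with Enpep and Hhip, called Enpep/Mki67 here for its cell cycle genes, had 842 cells and 16.5 ± 5.17 CPM, which overlapped the larger one. Theca-like cells had 10.6 ± 2.71 CPM and luteal-like cells 3.79 ± 1.51, without overlap. The luteal-like class pooled a cluster of 1531 cells at 1.55 ± 1.24 CPM and an Akr1c18/Ptgfr cluster of 505 cells at 14.5 ± 12.0 CPM, and the latter overlapped the theca-like values. Within the stromal-like class, Npr3 was at 136 ± 75.9 CPM in the main cluster and at 17.6 ± 9.31 CPM in the Gsn/Clec3b cluster, the opposite order to that of Npr2. All 8 Npr3 UMIs of the B-like cells came from 1 cell of the second Fosl2cKO library.

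**Figure D3:**
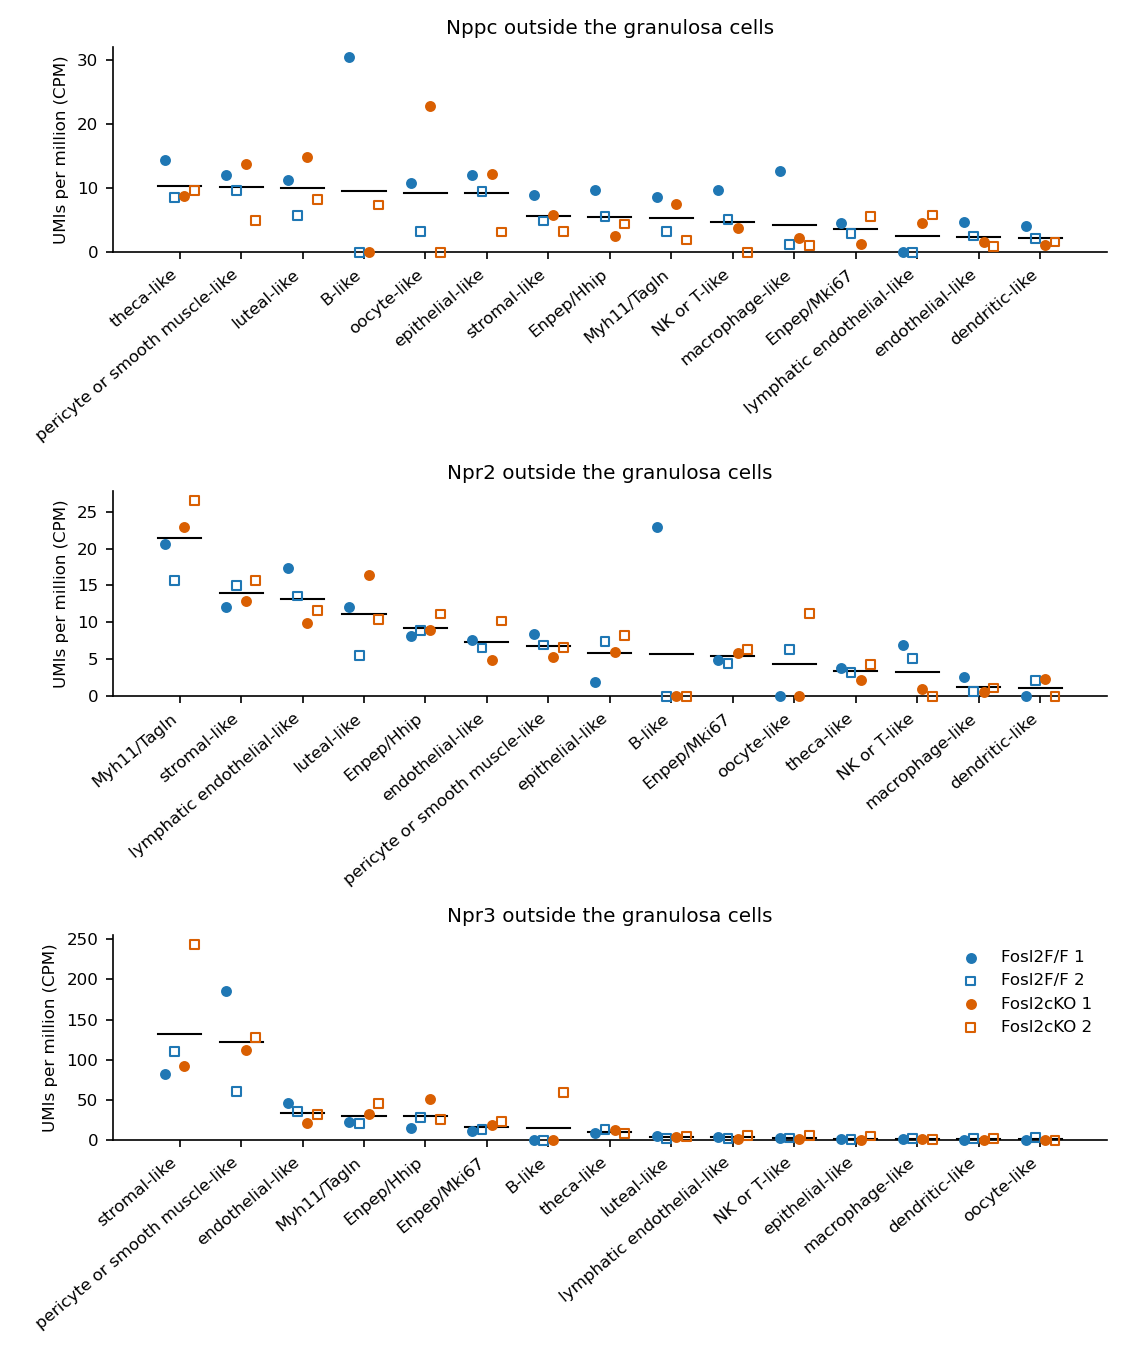
CPM (UMIs per 1000000 UMIs of the class, y axes) of Nppc, Npr2 and Npr3 in the 15 classes and clusters outside the granulosa cells (x axes), each panel in the order of its own means and on its own scale. Points are libraries and lines are means of the 4. Npr3 separates stromal-like and pericyte or smooth muscle-like cells (led by Rgs5), at 60.7 CPM or more, from every other class, the Myh11/Tagln cluster with the smooth muscle genes included.

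In GC-like cells Npr3 was at the background. Its level was 0.572 and 1.45 CPM in Fosl2F/F and 0.983 and 0.802 CPM in Fosl2cKO, beside 1.11 ± 0.55 in macrophage-like and 2.94 ± 1.89 in NK or T-like cells. After thinning, 0.18% ± 0.11 of GC-like, 0.20% ± 0.25 of macrophage-like and 0.59% ± 0.69 of NK or T-like cells had an Npr3 UMI, against 18.8% ± 7.38 of stromal-like and 19.2% ± 9.63 of pericyte or smooth muscle-like cells. Unthinned shares were 31.6% and 34.9% in the last 2 classes and 1.26% in GC-like cells. Median depths were 2049.5 to 7343 UMIs in stromal-like and 4582 to 19174.5 in GC-like cells. The difference of stromal-like from GC-like cells was 7.06 on the log2 scale (SE 0.30, edgeR adjusted p = 1.75e-07). With the GC-like level at the background, its size depends on that background: the ratio ran from 75.5 to 303 over the libraries, and with doublets kept the log2 difference was 5.57. Nppc differed the other way, by -4.03 (SE 0.13, edgeR adjusted p = 6.24e-08), which is 16.4-fold.

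The oocyte-like cells were too few to place the 3 genes. Of 133 such cells, 53 reached 2000 UMIs. No Nppc and no Npr3 UMI was found in these 53 after thinning, and 2 cells had an Npr2 UMI. For cells with a UMI at this depth, a count of 0 allows shares of up to 5.66% from counting error alone. Unthinned, 3 of the 133 cells had an Nppc UMI, 3 an Npr2 UMI and 1 an Npr3 UMI.

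The libraries labelled Fosl2cKO were then compared with those labelled Fosl2F/F within classes, and each direction given rests on these labels, which the level of Fosl2 did not check. In GC-like cells as a whole, Nppc stood at 179 and 69.6 CPM in Fosl2F/F and at 86.6 and 57.7 CPM in Fosl2cKO, so the groups overlapped. The log2 fold change of Fosl2cKO against Fosl2F/F was -0.83 (SE 0.45, 95% interval -1.91 to 0.24, edgeR adjusted p = 0.9997). Here 0.00579% of 17278 genes passed, namely Plb1, a phospholipase named because it alone passed. Plb1 was higher in Fosl2cKO by 12.0 on the log2 scale (SE 0.55, edgeR adjusted p = 0.00418), by 14.2 in mural-like and by 8.25 in cumulus-like cells. What Plb1 says about the genotypes was not tested. The share of mural-like cells among the GC-like cells was 23.2% and 6.19% in Fosl2F/F and 10.5% and 4.04% in Fosl2cKO, the same order of libraries as that of Nppc. Nppc within the mural-like cells followed this order as well, and the part of the mural-like share in the difference was not tested. With the first Fosl2F/F library left out, Nppc changed sign, at 0.08.

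Within mural-like cells the 4 values of Nppc, given above, overlapped between the groups, and the log2 fold change was -0.50 (SE 0.37, 95% interval -1.34 to 0.34, edgeR adjusted p = 0.9996). It turned to 0.07 with the first Fosl2F/F library left out. Here 0.0257% of 11678 genes passed, which were Plb1, Igfbp2 and Gm36840, named after their values were seen. Lhcgr in the same cells stood at 835 and 444 CPM in Fosl2F/F and at 231 and 213 CPM in Fosl2cKO (log2 fold change -1.58, SE 0.33, edgeR adjusted p = 0.485), and Cyp19a1 at 599 and 225 CPM against 89.1 and 275 CPM. Both genes were among the markers that named these cells, and the bearing of this on the comparison was not tested. In cumulus-like cells the log2 fold change of Nppc was 0.01 (SE 0.23, 95% interval -0.51 to 0.52, edgeR adjusted p = 0.9996), with 0.00761% of 13136 genes passing. The change in mural-like cells differed from that in cumulus-like cells by -0.47 (SE 0.45, 95% interval -1.48 to 0.53, edgeR interaction test, adjusted p = 1). For this interaction 0 genes (0% of 13742) passed in edgeR, 425 had an unadjusted p under 0.05, and 3 passed in DESeq2.

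In mitotic-like cells the groups did not overlap. With 2 libraries per group this is frequent without any change. The share of all genes without overlap was not counted, here or in the classes below, so nothing is read from it. Nppc stood there at 131 and 66.9 CPM in Fosl2F/F and at 60.0 and 36.8 CPM in Fosl2cKO. The log2 fold change was -1.07 (SE 0.36, 95% interval -1.93 to -0.20), at an unadjusted p of 0.0223 that did not hold after adjustment over the 14549 genes (edgeR adjusted p = 0.641). Over the alternatives that kept all libraries, the adjusted p of edgeR or DESeq2 ran from 3.01e-05 to 0.778. Nppc passed there without the gene filter and with the pairing of libraries crossed. Plb1 again was the gene that passed, 0.00687% of those tested. With the first Fosl2F/F library left out the change of Nppc was -0.46, and with the first Fosl2cKO library left out it was -1.44 and passed (edgeR adjusted p = 0.0651). The state pooled 3 GC clusters, and their mix differed between the groups. The cluster with the most cells made up 75.2% and 65.6% of the mitotic-like cells in Fosl2F/F and 48.4% and 54.8% in Fosl2cKO. Within it Nppc stood at 169.99 and 90.8 CPM in Fosl2F/F and at 73.9 and 49.1 CPM in Fosl2cKO, without overlap. In the next in size the values were 19.6 and 19.4 CPM in Fosl2F/F and 41.7 and 22.2 CPM in Fosl2cKO, without overlap and in the other direction. This split was looked at after the pooled values were known, and the part of the mix in the pooled change was not tested.

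Mitotic-antral-like cells had 116 and 56.4 CPM of Nppc in Fosl2F/F and 59.2 and 44.8 CPM in Fosl2cKO (log2 fold change -0.81, SE 0.35, edgeR adjusted p = 0.541). Atretic-like cells had 48.6 and 43.4 CPM in Fosl2F/F and 61.7 and 55.5 CPM in Fosl2cKO, at a log2 fold change of 0.26 (SE 0.20, edgeR adjusted p = 0.913). Clustered without integration of the libraries, it was 1.31 (SE 0.43, edgeR adjusted p = 0.726). The genes passing in these states were 0.00914% of 10940 and 0.00771% of 12971, Plb1 in both. In theca-like cells the log2 fold change of Nppc was -0.35 (SE 0.33, edgeR adjusted p = 0.99995), where 0.034% of 14685 genes passed (Plb1, Scand1, Tmem160, Dbp and Cebpd).

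No change of Npr2 passed. Its log2 fold change was -0.17 in GC-like cells as a whole (SE 0.31, 95% interval -0.91 to 0.58), -0.13 in cumulus-like cells (SE 0.25, interval -0.69 to 0.43) and -0.56 in mural-like cells (SE 0.64, interval -2.03 to 0.91), with edgeR adjusted p of 0.9997, 0.9996 and 0.9996. The first Fosl2cKO library was the lowest of the 4 in GC-like, mural-like, cumulus-like and mitotic-like cells alike. Without the second Fosl2cKO library the mural-like change was -1.78 and passed (edgeR adjusted p = 0.0247), without the first it was 0.26, and without the first Fosl2F/F library 0.37. In the Myh11/Tagln cluster the log2 fold change of Npr2 was 0.38 (SE 0.33, edgeR adjusted p = 0.9996), where 0.0544% of 11037 genes passed.

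Npr3 was tested in the stromal-like cells, where the values above overlapped between the groups. The log2 fold change was 0.79 (SE 0.38, 95% interval -0.01 to 1.58, edgeR adjusted p = 0.9997), with 0.22% of 14091 genes passing. Without the second Fosl2cKO library it was -0.03. In the Myh11/Tagln cluster, Npr3 was at 21.9 and 20.8 CPM in Fosl2F/F and at 32.6 and 45.4 CPM in Fosl2cKO, without overlap, with a log2 fold change of 0.80 (SE 0.32) at an unadjusted p of 0.0263 and an edgeR adjusted p of 0.9996. Endothelial-like cells went the other way without overlap, at 46.6 and 35.7 CPM in Fosl2F/F and 21.6 and 31.3 CPM in Fosl2cKO. The Enpep/Mki67 cluster, at 11.7 to 12.7 CPM in Fosl2F/F and 18.8 to 22.6 CPM in Fosl2cKO, did not overlap either. Neither of these 2 differences was tested or planned as a test, and the share of all genes without overlap in these classes was not counted. The larger Enpep/Hhip cluster, at 15.1 and 28.4 CPM in Fosl2F/F and 51.0 and 25.3 CPM in Fosl2cKO, overlapped between the groups. So did the pericyte or smooth muscle-like cells. In theca-like cells the log2 fold change was 0.01 (SE 0.34).

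**Figure D4:**
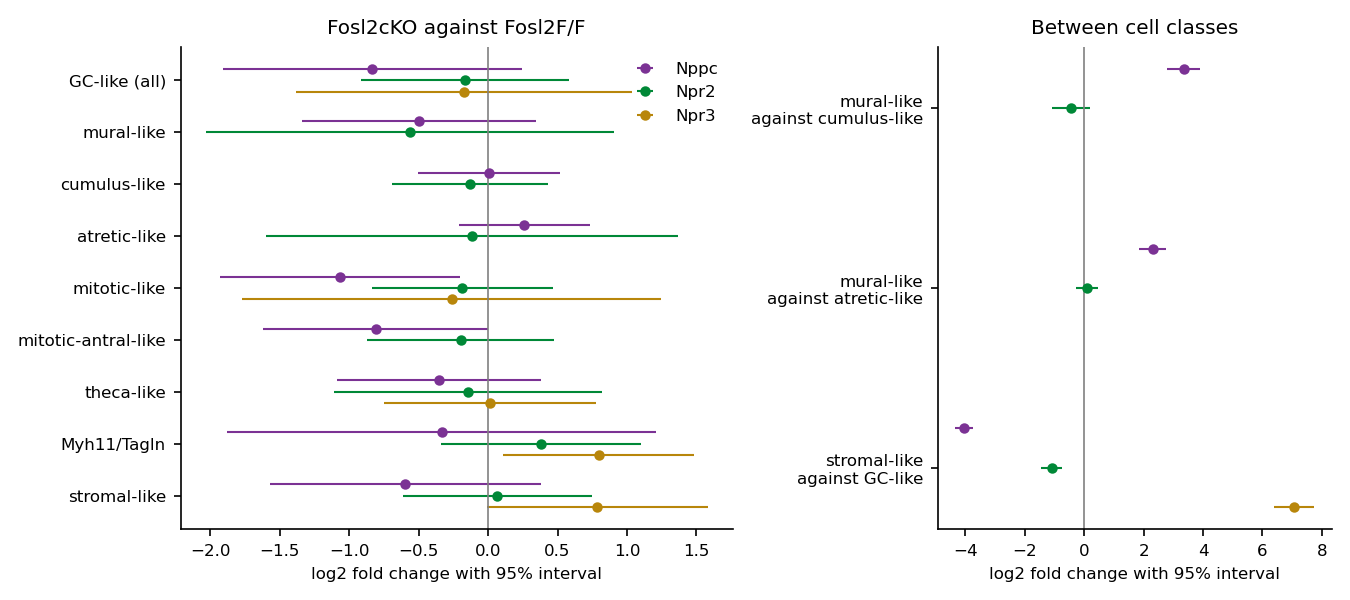
Log2 fold changes (x axes) of Nppc, Npr2 and Npr3 with 95% intervals from edgeR, for Fosl2cKO against Fosl2F/F within each class (left; the y axis lists the classes) and between classes (right). On the left, the intervals of Nppc in mitotic-like cells and of Npr3 in the Myh11/Tagln cluster lie off 0, and none passed the adjusted threshold. On the right Nppc is up by 3.35 in mural-like against cumulus-like cells, and Npr3 by 7.06 in stromal-like against GC-like cells.

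The other genes of natriuretic peptide and cyclic GMP signalling, a list of 28 with the 3 genes included, were read in the same comparisons. The remaining peptides were nearly absent, as Nppa (atrial), Nppb (brain) and Ostn (osteocrin) were below 1 CPM on average in every class. Npr1, the cyclase receptor of the atrial and brain peptides, was highest in epithelial-like cells at 122 CPM and stood at 59.1 CPM in lymphatic endothelial-like, 54.6 CPM in theca-like and 34.3 CPM in stromal-like cells. Furin, the protease that cleaves the precursor of C-type natriuretic peptide, was in every class, at 11.5 CPM in mitotic-like cells and above.

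Of the list, 8 genes were higher and 6 lower in mural-like than in cumulus-like cells, 7 did not pass and 7 were not tested, where 55.1% of all 12817 genes passed. The median log2 difference of those tested was 0.49, beside -0.01 over all genes. Those higher included Nppc, the gap junction gene Gja1 (log2 difference 3.12, SE 0.12, edgeR adjusted p = 6.87e-07), and Impdh1, an enzyme of guanine nucleotide synthesis (1.61, SE 0.14). Impdh2, the other form of that enzyme, was lower (-0.54, SE 0.14, edgeR adjusted p = 0.0134). All 3 subunit genes of the nitric oxide-sensitive guanylyl cyclase on the list were lower in mural-like cells, with log2 differences of -1.62 for Gucy1a1 (SE 0.16), -2.46 for Gucy1a2 (SE 0.19) and -1.10 for Gucy1b1 (SE 0.17). The cyclic GMP phosphodiesterase gene Pde5a was higher (1.39, SE 0.27, edgeR adjusted p = 0.00265). Against atretic-like cells, 7 of the list were higher in mural-like cells and 2 lower, 12 did not pass and 7 were not tested, where 29.1% of all 12365 genes passed.

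Between stromal-like and GC-like cells 15 of the 28 were higher in stromal-like cells, 6 lower, 4 did not pass and 3 were not tested, where 70.2% of all 16212 genes passed. The median log2 difference of those tested was 1.15, beside -0.02 over all genes. Among the higher ones, and named after their values were seen, were the cyclic GMP-dependent kinase gene Prkg1 (4.56, SE 0.15), its substrate gene Mrvi1 (6.75, SE 0.29), and the phosphodiesterase genes Pde5a (3.91, SE 0.15) and Pde3a (6.32, SE 0.20). Prkg1 reached 2500 CPM and Pde3a 1120 CPM in pericyte or smooth muscle-like cells, which had the second highest mean level of Npr3. In oocyte-like cells Pde3a was at 119 CPM, and Gja4, the gap junction gene of the oocyte, at 610.1 CPM, beside 243 CPM in pericyte or smooth muscle-like and 234 CPM in endothelial-like cells. Between Fosl2cKO and Fosl2F/F, 17 to 25 of the 28 could be tested per class, and none of those passed in edgeR in the 9 classes. An unadjusted p under 0.05 was found for 0 of 25 in GC-like cells, where 826 of 17278 genes had one, and for up to 3 of 24, in mitotic-like cells, where 1005 of 14549 genes had one.

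**Figure D5:**
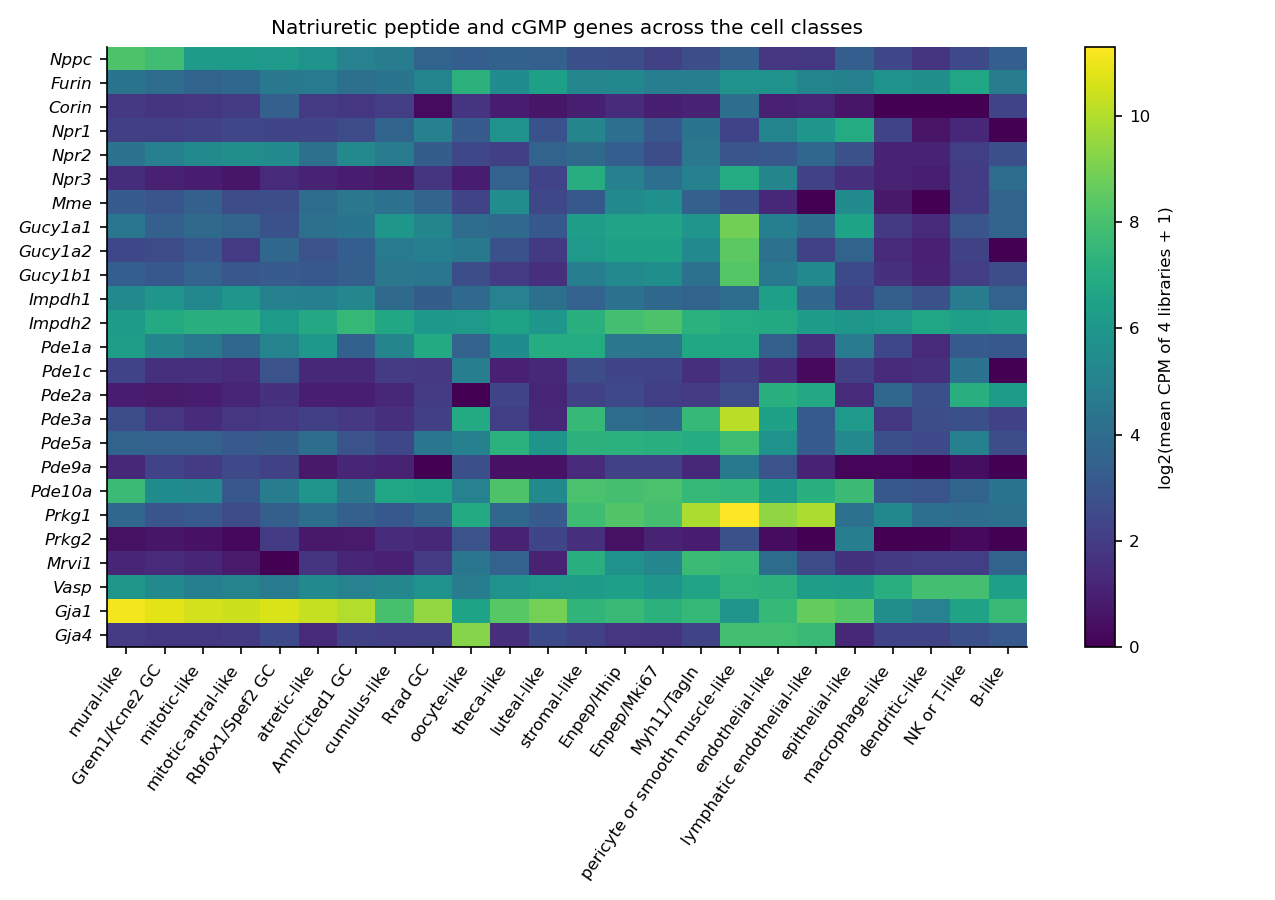
Colour gives log2 of the mean CPM of the 4 libraries plus 1 for 25 genes of natriuretic peptide and cyclic GMP signalling (y axis) in 24 cell classes, states and clusters (x axis). Nppc and Gja1 are brightest in the mural-like column, and Npr3 in the stromal-like and pericyte or smooth muscle-like columns, where Prkg1 and Pde3a are bright as well.

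Across the 24 classes, states and clusters, which share their libraries, the genes with levels most like those of each member were sought among 12640 genes, as a description. The pattern of Nppc was closest to that of 5430401H09Rik (Pearson r = 0.94 over mean log2 levels), Masp1, Smim10l2a, Inha and Mro (r = 0.93 for each). Inha, also one of the markers used to name the GC-like class, encodes the alpha subunit of inhibin, a GC hormone. For Npr2 the closest were Synpo (r = 0.94), Phka1 (0.93), Gpsm1 (0.92), Wdr59 and Nr6a1os (0.91 for both). For Npr3 they were Sparcl1 (0.96), Igfbp7, Col15a1, Prrx1 and Abcc9 (0.92 to 0.93), of which Col15a1 encodes a basement membrane collagen and Abcc9, also one of the pericyte markers used to name that class, a subunit of potassium channels in mural cells of vessels.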

How the data were processed

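The deposited count tables held whole-number UMI counts per gene and barcode. Per the labels and the study's methods, the authors made them with Cell Ranger (3′ v3 chemistry) on GRCm38. The matrix header names a later Cell Ranger version than the methods, and whether the ambient RNA correction of the methods (CellBender) is contained was not given in the sources used here. Barcodes were kept from 500 genes and above 1000 UMIs on, provided that mitochondrial genes gave less than 10% and hemoglobin genes less than 0.1% of the UMIs. The highest doublet scores (Scrublet in scanpy 1.11.5) were removed at 0.8% per 1000 cells, 412 to 4723 cells per library. SCTransform, reciprocal PCA integration and Louvain clustering followed (Seurat 5.3.0, 3000 features, 30 dimensions, resolution 0.8, and 0.5 for GC-like cells). Markers named the clusters, with limits set after clusters were seen. UMIs were summed per class and library and tested with edgeR 4.0.16 (quasi-likelihood, TMM, filterByExpr). To pass, a gene needed an adjusted p below 0.1 together with an absolute log2 change above 0.25, in classes with 20 cells or more per library. Condition tests had no covariate, and tests between classes had the library as a block.

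The fits were tested on simulated data with known changes, of which the condition tests missed many. A change between the groups that did not pass is therefore not shown to be absent. Thinning left out 4.23% to 20.3% of the cells of a library. Intervals of 95% and limits from 3 counts cover counting error or the spread between libraries only. Named genes are the members, a natriuretic peptide and cyclic GMP list (28), a meiotic arrest and resumption list (10), Fosl2, Cyp19a1 and the 5 most similar genes for each member (at least 20 CPM in a class). Members and lists were chosen with earlier results of these data known. Alternatives were doublets kept, no integration, other cluster resolutions, a 2000 UMI minimum, DESeq2 and its size factors, no gene filter, another threshold, each library left out, and the replicate block.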

Additional observations from a re-analysis of the deposited data

How the results depend on the processing

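The numbers 1 and 2 are shared by both groups, and no label says whether they pair the libraries. Same-numbered libraries deviated from their group means with correlations of -0.35 in GC-like, -0.31 in mural-like, -0.23 in cumulus-like and -0.07 in stromal-like cells. With 2 libraries per group the crossed pairing gives the opposite sign, so these values cannot decide whether the libraries are paired. With the replicate block, 56 genes passed in GC-like cells, 14 in the Myh11/Tagln cluster and 0 in stromal-like cells, and no call of Nppc, Npr2 or Npr3 changed. With the pairing crossed, which was chosen after seeing the data, 2 genes passed in GC-like, 57 in mural-like, 161 in cumulus-like, 70 in atretic-like, 548 in mitotic-like, 62 in mitotic-antral-like, 191 in theca-like and 154 in stromal-like cells and 77 in the Myh11/Tagln cluster, and Nppc passed in mitotic-like cells at -1.02.

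The count of genes passing depended on the tool. DESeq2 called 167 in GC-like, 33 in mural-like, 58 in cumulus-like, 43 in atretic-like, 176 in mitotic-like, 96 in mitotic-antral-like and 63 in theca-like cells, 13 in the Myh11/Tagln cluster and 3 for the interaction. Without the gene filter, edgeR called 255, 195, 243, 282, 601, 533 and 264 in the first 7 of these, 130 in the cluster and 214 in stromal-like cells, with Nppc passing in mitotic-like (-1.07) and mitotic-antral-like cells (-0.84) and Npr2 between mural-like and cumulus-like cells (-0.46). At adjusted p under 0.05 with no minimum fold, 1 passed in mural-like, 1 in theca-like and 11 in stromal-like cells and 0 in the cluster. Without integration 18 passed in mural-like, 17 in cumulus-like and 8 in atretic-like cells, with doublets kept 1 in mural-like, and with finer clusters 15 in cumulus-like cells. In mitotic-antral-like cells 2 passed with finer or coarser clusters, over 2000 UMIs or with DESeq2's size factors, which also gave 2 in cumulus-like cells. The causes were not tested.

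Under alternatives that kept all libraries, 278 values for the 3 genes kept their direction and side of the threshold, 10 changed sign and 6 newly passed. Those that changed sign were near 0: Npr3 in GC-like cells with doublets kept (0.10), in mitotic-like cells with finer clusters (0.062) and in theca-like cells with coarser clusters (-0.0097), Nppc in cumulus-like cells over 2000 UMIs (-0.0017), with coarser clusters (-0.0070), doublets kept (-0.056) or no integration (-0.043), and Npr2 between mural-like and cumulus-like cells with coarser clusters (0.024) or doublets kept (0.044) and between mural-like and atretic-like cells without integration (-0.0023). Npr2 passed in the last comparison with coarser clusters (0.60) and doublets kept (0.42). The level of Npr2 in stromal-like cells was 11.4 CPM without integration, and that of Npr3 in GC-like cells 2.79 CPM with doublets kept.

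Leaving out 1 library at a time, where the lone library of an arm is assumed to vary like the others, left 99 values for the 3 genes on their side and changed the sign of 30. The log2 values ran as follows. For the condition, Nppc was -1.38 to 0.076 in GC-like, 0.15 to 0.42 in atretic-like, -0.13 to 0.17 in cumulus-like, -1.48 to -0.46 in mitotic-like, -1.24 to -0.17 in mitotic-antral-like, -0.90 to 0.075 in mural-like, -1.63 to 0.51 in Myh11/Tagln, -1.13 to -0.08 in stromal-like, -0.70 to 0.082 in theca-like and -1.15 to 0.18 for the interaction. Nppc was 2.05 to 2.50 for mural-like against atretic-like cells, 3.05 to 3.58 for mural-like against cumulus-like cells, -4.12 to -3.94 for stromal-like against GC-like cells. For the condition, Npr2 was -0.70 to 0.22 in GC-like, -1.54 to 0.56 in atretic-like, -0.44 to 0.14 in cumulus-like, -0.62 to 0.15 in mitotic-like, -0.67 to 0.15 in mitotic-antral-like, -1.78 to 0.37 in mural-like, 0.16 to 0.62 in Myh11/Tagln, -0.049 to 0.21 in stromal-like, -0.68 to 0.26 in theca-like and -1.30 to 0.36 for the interaction. Npr2 was -0.084 to 0.18 for mural-like against atretic-like cells, -0.84 to -0.12 for mural-like against cumulus-like cells, -1.27 to -0.98 for stromal-like against GC-like cells. For the condition, Npr3 was -0.68 to 0.57 in GC-like, -0.89 to 0.59 in mitotic-like, 0.53 to 1.02 in Myh11/Tagln, -0.035 to 1.29 in stromal-like, -0.38 to 0.35 in theca-like and -7.39 to 0.44 for the interaction. Npr3 was 6.67 to 7.35 for stromal-like against GC-like cells. Genes passing numbered 1 to 64 (the interaction), 0 to 168 (GC-like), 1 to 19 (atretic-like), 0 to 157 (cumulus-like), 1 to 231 (mitotic-like), 2 to 169 (mitotic-antral-like), 0 to 177 (mural-like), 1 to 130 (Myh11/Tagln), 0 to 277 (stromal-like), 0 to 299 (theca-like), 2178 to 3551 (mural-like against atretic-like), 5952 to 6876 (mural-like against cumulus-like), 10670 to 11195 (stromal-like against GC-like). Npr2 passed between mural-like and cumulus-like cells without the first Fosl2F/F library (-0.84, edgeR adjusted p = 0.0428).

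Shares of cells depend on depth. At 1000 UMIs and unthinned, Nppc was in 8.45% and 44.0% of GC-like, 20.6% and 73.6% of mural-like, 2.15% and 22.6% of cumulus-like and 0.902% and 10.5% of theca-like cells. Npr2 was in 2.61% and 31.6% of GC-like, 1.52% and 19.9% of mural-like, 2.09% and 22.9% of cumulus-like and 1.45% and 7.37% of stromal-like cells. Npr3 was in 10.9% and 31.6% of stromal-like and 2.81% and 12.3% of endothelial-like cells, and unthinned in 34.9% of pericyte or smooth muscle-like and 1.26% of GC-like cells.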

Other observations

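Genes of meiotic arrest and resumption other than the 3 genes were read from a list of 10. Lhcgr and Fshr, the receptors of luteinizing and follicle-stimulating hormone, were among the genes used for clustering, and mean Lhcgr levels were 1143 CPM in luteal-like, 526 CPM in theca-like and 431 CPM in mural-like cells. Areg and Ereg, which encode epidermal growth factor-like ligands, were highest outside the GCs, Areg at 89.8 ± 37.5 CPM in NK or T-like cells and Ereg at 30.8 ± 33.0 CPM in theca-like cells (SD, n = 4). Egfr, their receptor, was at 391 ± 83.8 CPM in stromal-like cells. The oocyte genes Gdf9 and Bmp15 stood at 1991 ± 341 and 706 ± 300.4 CPM in oocyte-like cells, and Gpr3, which keeps cyclic AMP high in the oocyte, at 37.1 ± 16.5 CPM.

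Between Fosl2cKO and Fosl2F/F, Lhcgr in stromal-like cells was the member of this list that passed, with a log2 fold change of -2.21 (SE 0.43, edgeR adjusted p = 0.0615). It stood there at 20.3 and 49.0 CPM in Fosl2F/F and at 4.62 and 10.4 CPM in Fosl2cKO, far below the theca-like level. Of 14091 genes, 31 or 0.22% passed in stromal-like cells. No gene passed there with the replicate number as a block or without the first Fosl2F/F library, so the call of Lhcgr was lost in both, and 2 genes passed without the second Fosl2F/F library. Gdf9, an oocyte transcript, had a log2 fold change of -2.09 in the same stromal-like cells (SE 0.57, edgeR adjusted p = 0.322), -2.24 in GC-like cells (SE 0.72, edgeR adjusted p = 0.991) and -2.07 in theca-like cells (SE 0.63, edgeR adjusted p = 0.941). The part of RNA from other cells in these values was not tested.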
